A study of Homo sapiens with 12 samples.

Results

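The heat shock response is the cytosolic counterpart of the unfolded protein response. When misfolded proteins occupy the chaperones that normally hold it inactive, the transcription factor HSF1 forms trimers and binds heat shock elements, which are inverted repeats of the bases GAA in the promoters of chaperone genes. The proteins made from these genes work as a network, in which HSP40 cochaperones deliver unfolded clients to HSP70, nucleotide exchange factors release them, and HSP90 finishes the maturation of a further set of clients. In HEK293T cells, a human embryonic kidney line that grows rapidly and expresses the SV40 large T antigen, the constitutive part of this network is active without any heat shock.

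10 genes of this network were examined, of 23292 gene symbols in the deposited tables. They were chosen by name, and all 10 were found. They comprise the HSP70 genes *HSPA1A*, *HSPA1B* and *HSPA8*, the HSP70-related exchange factor *HSPH1*, the HSP40 genes *DNAJB1* and *DNAJB4*, the HSP90 gene *HSP90AA1*, the small heat shock protein gene *HSPB1*, the cochaperone *BAG3* and the factor *HSF1* itself. RNA came from wild-type HEK293T cells (some of the labels say HEK293) treated for 6 h with DMSO vehicle or with 10 µM of AA263, a phenylhydrazone that activates the ATF6 arm of the unfolded protein response, or of its analogs AA263yne and AA263-5. Each of these 4 groups had 3 samples, 12 in all. The value given here for each gene is the authors' mean normalized value over all 12 samples, with treated and vehicle samples pooled. It therefore describes how abundant each transcript was across the experiment. It holds no difference between a compound and vehicle and no spread between replicates, so no test was made and no difference between genes could be set against replicate error. The authors' own comparisons of compound with vehicle were not used here. The pooled values sum to 36.6 M over all genes, the files do not show the depth of each sample, and these values are identical in the 3 tables. All 8 markers taken for this line were listed at a mean of at least 10, led by vimentin (*VIM*, 8726 per kilobase of transcript). The lowest were *PAX2* (6.62 per kilobase), *NES* (22.1) and *LHX1* (25.0), against a median of 207 over genes with such a mean and a known length. None of the 6 markers of leukocytes, hepatocytes, erythroid cells, endothelium and muscle reached that mean. 4 of them were listed, the highest being *ALB* at 0.569 per kilobase, and *HBB* and *MYH7* were not listed.

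The heat shock elements in the promoters of these genes are the sequence feature that the name of the group refers to. Promoter windows of 300 bases, from 250 before to 50 after each transcript start, were taken from RefSeq (GRCh38.p14). Windows were found for 9 of the 10 genes, the exception being *HSF1*. A complete element of 3 alternating units was searched as GAA, TTC and GAA, or TTC, GAA and TTC, with any 2 bases between neighbouring units, which covers both strands. It was present in 2 of the 9 genes, *HSPA8* and *HSP90AA1*, against 0.597% of all 27305 genes with a window. The 3 matches are shown because these are the constitutive HSP70 and the HSP90 gene, both among the most abundant transcripts described below. Capitals mark the GAA and TTC units, each line reads 5′ to 3′ on the strand of the gene, and for both genes that is the minus strand.
HSPA8, chr11:123062345-123062374: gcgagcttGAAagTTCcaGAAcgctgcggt
HSPA8, chr11:123062170-123062199: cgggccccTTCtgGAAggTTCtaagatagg
HSP90AA1, chr14:102087111-102087140: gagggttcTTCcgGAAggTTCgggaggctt
In *HSPA8* these elements began 230 and 55 bases before the transcript start. In *HSP90AA1* the element began 88 bases before it.

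The other promoters held shorter forms. A pair of facing units, searched as GAANNTTC or TTCNNGAA, was present in 7 of the 9 genes and in 16.2% of all genes with a window. These 2 motifs are each their own reverse complement, and every complete element holds both of them. With 1 mismatch allowed among the 9 defining bases, a complete element was likewise found in 7 of the 9 genes, against 7.54% of all genes. *HSPA1A*, *HSPA1B*, *DNAJB1*, *DNAJB4* and *HSPB1* were the genes that held a match only in these looser forms. Their matches with at most 1 mismatch, in the window at the start of the representative transcript, are given next, since they include the inducible HSP70 pair, and capitals again mark the 3 units, the mismatched unit included. The DNAJB1 gene lies on the minus strand and the others on the plus strand.
HSPA1A, chr6:31815429-31815458: aaaccctgGAAtaTTCccGACctggcagcc
HSPA1B, chr6:31827625-31827654: aacccctgGAAtaTTCccGACctggcagcc
DNAJB1, chr19:14518453-14518482: gcggggcgGAAggTTCtgGAGggggctggc
DNAJB1, chr19:14518428-14518457: ctggcgggCTCtgGAAgcTTCcgccggacg
DNAJB4, chr1:78004833-78004862: atttgctgTTCtaGAAagTACagagacacg
HSPB1, chr7:76302483-76302512: taacgagaGAAggTTCcaGATgagggctga
The *HSPA1A* and *HSPA1B* matches lay at nearly the same place, beginning 106 and 105 bases before the transcript start. The *HSPB1* match was the most distant of these, beginning 182 bases before the start. No match in any of the 3 forms was found in the windows of *HSPH1* and *BAG3*, which says only that these letters are not in these 300 bases. The window of *HSPH1* starts from a transcript start that lies 484 bases from that of the transcript used here for its length.

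**Figure D1:**
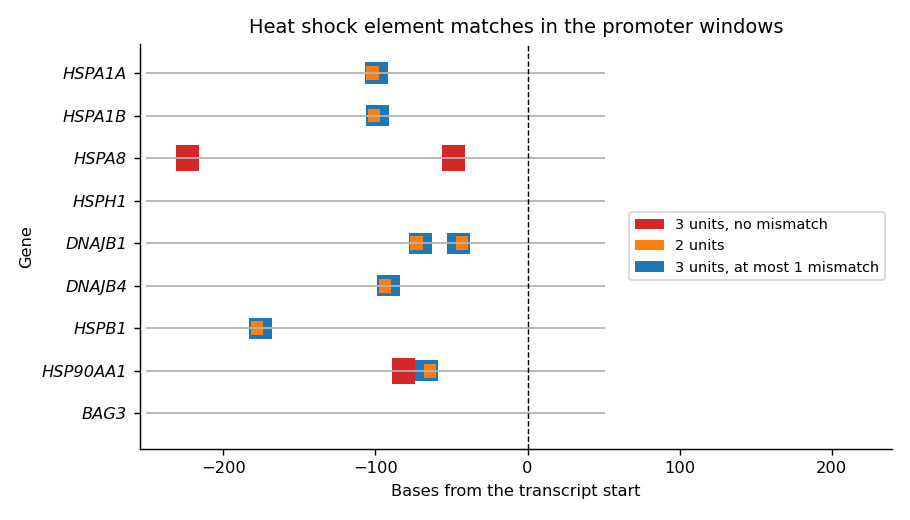
Position of heat shock element matches in the promoter window nearest to the representative transcript start of each of 9 genes, with bases from the transcript start on the horizontal axis and genes on the vertical axis. Grey lines are the 300-base windows, red bars complete elements of 3 units, blue bars elements with 1 mismatch and orange bars pairs of units. Complete elements appear in *HSPA8* and *HSP90AA1* alone, and the windows of *HSPH1* and *BAG3* are empty.

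The HSP70 genes had the largest part of the summed level of the 10 genes. *HSPA8*, which encodes the constitutive HSC70, had the highest undivided mean normalized value of the 10, 142521, the 17th highest of all symbols. *HSPA1B* followed among the HSP70 genes with 90103 and *HSPA1A* with 62164. *HSPA1A* and *HSPA1B* encode the stress-inducible HSP70, yet together they had a mean of 152267, above that of *HSPA8*. Longer transcripts collect more reads, so an order among the undivided means also reflects length, and levels were therefore compared after division by the length of a representative transcript in kilobases. The study's methods name RPKM, which is already divided by length, as what DESeq2 was fitted to. Plain RPKM values with the sum of the deposited values would need a mean transcript length of 27.3 bases, shorter than a read, so the values were treated here as not divided by length. Whether they were divided and then rescaled was not tested. In that case the levels per kilobase given here are divided by length a further time, and the undivided means are the ones to compare. *HSPA8* stood at 62951 per kilobase, *HSPA1B* at 35798 and *HSPA1A* at 25902. The ratio of *HSPA8* to the inducible pair as a sum was 1.02 per kilobase, so the constitutive gene and the inducible genes were listed at nearly equal levels in these pooled samples. This ratio depended on the length used. With the union of all annotated exons, which is 4849 bases for *HSPA8* against 2264 bases for its representative transcript, it was 0.477, against 0.936 with no division by length, and with that union *HSPA8* at 29392 per kilobase lay below *HSPA1B*. *HSPA1B* stood 1.38 times as high as *HSPA1A* per kilobase.

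*HSPA1A* and *HSPA1B* cannot be separated well by sequence, and this limits each of their values. Both genes have 1 exon and lie on the plus strand of chromosome 6 of GRCh38, *HSPA1A* from 31815543 to 31817946 and *HSPA1B* from 31827738 to 31830254. Their coding sequences are 1923 bases each (without the stop codon) and differ at 4 of them, an identity of 99.8%. The study's methods give paired reads of 50 bases. Of the 2351 windows of 50 bases in the *HSPA1A* transcript, 75.1% recurred exactly in a transcript of another gene, and 1766 of these were in *HSPA1B*. For *HSPA1B* the share was 73.6% of 2468 windows. Within the coding sequence 93.9% of the *HSPA1A* windows and 96.6% of the *HSPA1B* windows were shared. Wholly 5′ or wholly 3′ of the coding sequence the share was 0 for both genes, so a read lying there fitted 1 of the genes alone. Windows were taken singly, and a read in shared sequence may also have been placed by its mate, so these shares may overstate the ambiguity of read pairs. How the authors' software assigned reads that fit several genes is not given in the sources used here. The value of 1.38 above rests on that assignment, and so does the sum of the pair if such reads were left out, counted more than once or given to another gene, which was not tested. The long noncoding RNA ENSG00000285565 held 822 of the *HSPA1A* windows and 872 of the *HSPA1B* windows, and the deposited tables, which name genes by symbol, list no value under that identifier. *HSPA1L*, a testis-enriched HSP70 gene beside them, held 61 windows of each and was listed at a mean of 19.4.

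**Figure D2:**
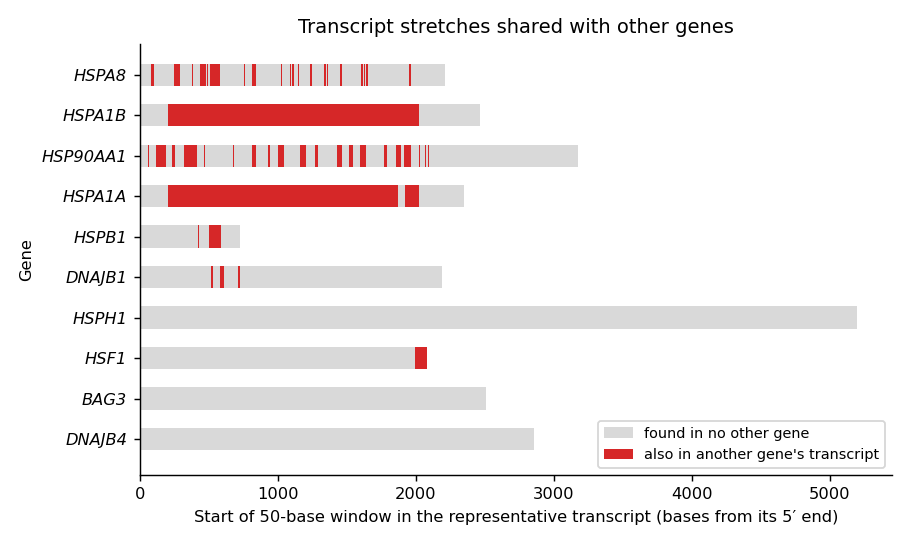
Windows of 50 bases along the representative transcript of each of the 10 genes, by the place of the window's first base from the 5′ end. Red stretches recur exactly in an annotated transcript of another gene and grey stretches do not. *HSPA1A* and *HSPA1B* are red over most of their length, *HSPA8* and *HSP90AA1* in short scattered stretches, and *HSPH1*, *BAG3* and *DNAJB4* have none.

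The other members could be told apart from other genes over most or all of their length. *HSPA8*, on the minus strand of chromosome 11 from 123057489 to 123063230, shares 73.3% of its aligned coding bases with *HSPA1A*. 16.8% of its windows recurred elsewhere, the most in the processed pseudogene *HSPA8P1* (153 windows). For *HSP90AA1* the share was 19.1%, of which 436 windows were in the pseudogene *HSP90AA2P*. For *HSPB1* it was 13.5%, with 98 windows in the pseudogene *HSPB1P1*, and for *DNAJB1* it was 2.60%, with 57 windows in *DNAJB1P1*. The deposited tables list none of these 4 pseudogenes under these symbols. All shared windows of *HSF1*, 4.22%, lay 3′ of its coding sequence and recurred in *DGAT1*, a triglyceride synthesis gene on the opposite strand that overlaps its end and was listed at a mean of 1166. On the same strand the share was 0. The labels describe strand-specific libraries, but whether strand was used in counting is not given in the sources used here.

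*HSP90AA1* encodes the inducible cytosolic HSP90 isoform and lies on the minus strand of chromosome 14 from 102080742 to 102139699. Its mean normalized value was 98052, and its level of 30376 per kilobase placed it between *HSPA1B* and *HSPA1A*. The constitutive isoform *HSP90AB1*, which is not a member, stood at 28060 per kilobase, a ratio to *HSP90AA1* of 0.924. With the union of exons this ratio was 1.25, and *HSP90AA1* at 19237 per kilobase then lay below *HSPA1A*. *HSPA8*, *HSPA1B*, *HSP90AA1* and *HSPA1A* were the 4 members in the top 1% of the 14062 genes that had a mean of at least 10 and a known length. *HSPA8* ranked 28th of these and *HSPA1A*, the lowest of the 4, ranked 64th. These genes held 90.5% of the summed level per kilobase of the 10, with *HSPA8* alone at 36.7% and the *HSPA1A* and *HSPA1B* pair at 36.01%. Undivided by length, the 10 genes together made up 1.18% of the sum of all values, of which 0.416% was the *HSPA1A* and *HSPA1B* pair.

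**Figure D3:**
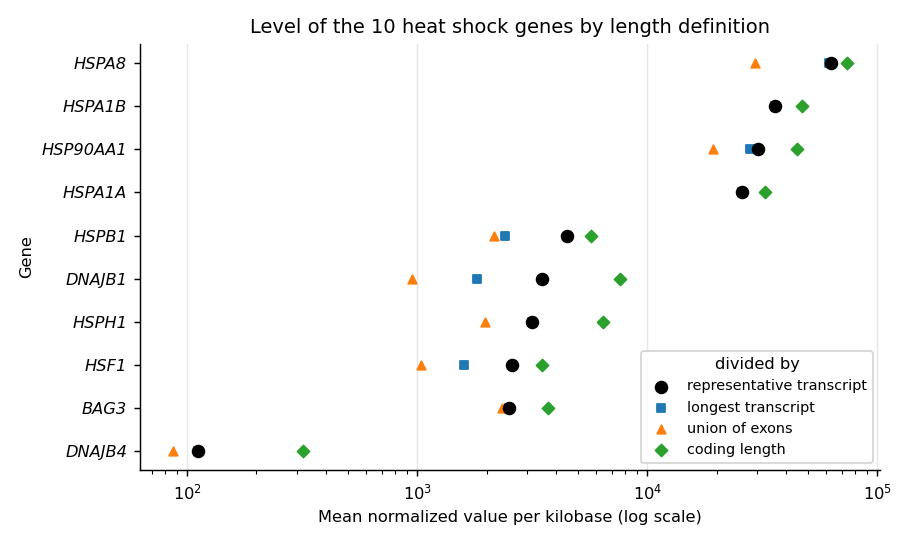
Mean normalized value per kilobase (log axis) of the 10 genes, ordered by the value with the representative transcript (black circles), with the same mean divided by the longest transcript, the union of exons or the coding length. The values are means over all 12 samples with no replicate error. The top 4 genes stay above the other 6 whichever length is used. Places change within the top 4 with the union of exons, and among *HSPB1*, *DNAJB1*, *HSPH1*, *HSF1* and *BAG3*.

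Below these 4 genes the level per kilobase dropped 5.77-fold, from *HSPA1A* to *HSPB1*. The drop from the lowest of the 4 to the highest of the other 6 was 8.23-fold with the union of exons and 3.75-fold undivided, where the next gene was *HSPH1*. *HSPB1* encodes HSP27, a small heat shock protein that holds unfolded proteins without using ATP. Its undivided mean normalized value of 3490 was the second lowest of the 10, but its transcript of 777 bases is the shortest, and per kilobase it stood highest of the 6 remaining genes at 4492. It was followed by *DNAJB1* at 3474 per kilobase, *HSPH1* at 3161, *HSF1* at 2587 and *BAG3* at 2499. From *HSPB1* to *BAG3*, neighbours in this order differed by 1.04-fold to 1.29-fold. With no spread between samples at hand, these neighbours were not separated, and their order changed with the length used. *DNAJB1* in particular had 3474 per kilobase of its representative transcript, 951 with the union of exons and 7635 with the coding length. With the representative transcripts all 5 genes lay between the 92.2nd and the 95.9th percentile of the ranked genes.

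The cochaperones among the 10 genes stood far below the HSP70 genes whose products they serve. *DNAJB1*, the HSP40 that stimulates the ATPase of inducible HSP70, had a mean normalized value of 7788. Its relative *DNAJB4*, with 62.2% identical coding bases, had 323 and was the lowest of the 10, undivided and per kilobase alike. Per kilobase *DNAJB1* stood 31.2 times as high as *DNAJB4*, 10.9 times with the union of exons and 24.1 times undivided. *HSPA8*, *HSPA1A* and *HSPA1B* together exceeded the 2 HSP40 genes together 34.8-fold per kilobase, a ratio that ran from 19.2 with the coding length to 87.7 with the union of exons. *HSPH1*, also known as HSP110, exchanges the nucleotide of HSP70 and helps it to dissolve aggregates. Its mean was 16575, and the HSP70 genes exceeded it 39.4-fold per kilobase, 23.7-fold with the coding length and 17.8-fold undivided. *BAG3*, an exchange factor that links HSP70 to small heat shock proteins and to selective autophagy, had a mean of 6400, and the HSP70 genes exceeded it 49.9-fold per kilobase.

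*HSF1*, the transcription factor itself, had a mean normalized value of 5522 and a level of 2587 per kilobase, which was 1600 with the longest transcript and 1041 with the union of exons. Among the other heat shock factors and the HSF1-binding protein gene *HSBP1*, a list of 4 genes, *HSF2* was highest at 729 per kilobase and *HSF5* lowest at 0.120. Undivided by length, *HSBP1* was highest of the 4 with a mean of 3515, against 1893 for *HSF2*. *HSF1* exceeded *HSF2* 3.55-fold with the representative transcripts and 1.48-fold with the union of exons. With the representative transcripts *DNAJB4* was the 1 member outside the top 10%, at the 38.4th percentile and 111 per kilobase, against a median of 207 over the ranked genes. With no minimum on the mean it was at the 51.7th percentile, above the median of the genes then ranked. The count of members in the top 10% was 8 undivided, where *HSPB1* was at the 86.2nd percentile, and 7 with the union of exons, where *DNAJB1* and *HSF1* also fell outside it. With the coding length it was likewise 7, with *BAG3* and *HSF1* outside. From *HSPA8* to *DNAJB4* the 10 levels spanned 566-fold per kilobase, 230-fold with the coding length and 442-fold undivided.

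**Figure D4:**
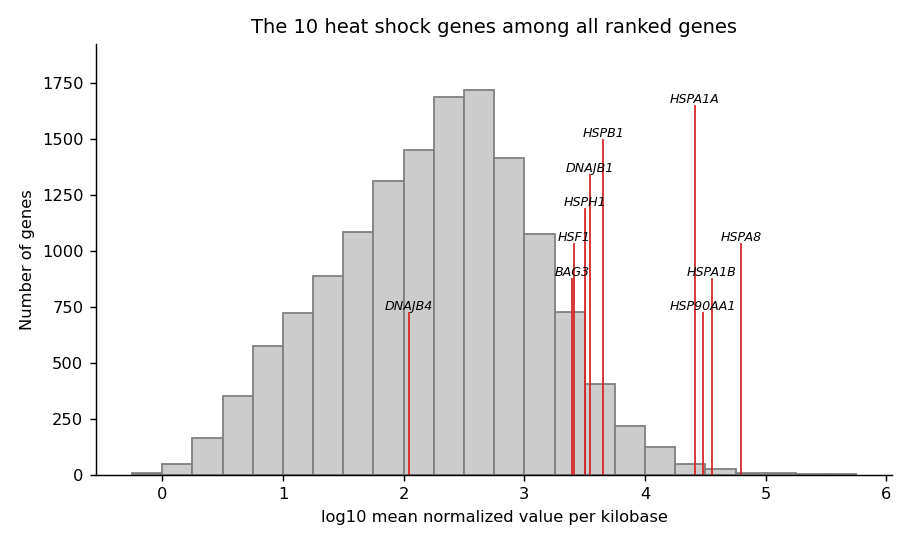
Number of genes by log10 of the mean normalized value per kilobase, for the 14062 genes with a mean of at least 10 and a known length (grey bars), with the 10 heat shock genes as red lines whose heights only separate the names. On this scale 9 of the 10 lie in the top 10% of genes, against 8 undivided by length, and *DNAJB4* lies below the median of these genes.

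Relatives in the HSP70 and small heat shock protein families were listed below the HSP70 members and *HSPB1*, while most of the other HSP40 genes lay between *DNAJB4* and *DNAJB1* or above them. The other HSP70 family list of 9 genes had a median of 94.5 per kilobase, with *HSPA4*, another HSP110-type exchange factor, highest at 3388 and *HSPA12B* lowest at 2.76. *HSPA6*, a strictly stress-inducible HSP70, stood at 24.2 per kilobase, so that *HSPA1A* and *HSPA1B* together exceeded it 2547-fold. Of the other HSP40 list of 7 genes, whose median was 354 per kilobase, the highest was *DNAJA1* at 6894, 1.98 times the level of *DNAJB1* (6.30 times with the union of exons). *DNAJC7* at 3941 per kilobase also lay above both member HSP40 genes, though its undivided mean of 7118 was below that of *DNAJB1*. The lowest was *DNAJA4* at 0.347. Of the 8 other small heat shock protein genes, 6 were listed and only *HSPB8*, at 16.3, had a mean of at least 10. Per kilobase *HSPB9* was the highest of the 6 at 13.4, though its undivided mean was 7.36, and *HSPB7* the lowest at 0.271. *HSPB1* was thus the 1 abundant small heat shock protein transcript among the 9 considered. The median of the 10 members was 3983 per kilobase.

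**Figure D5:**
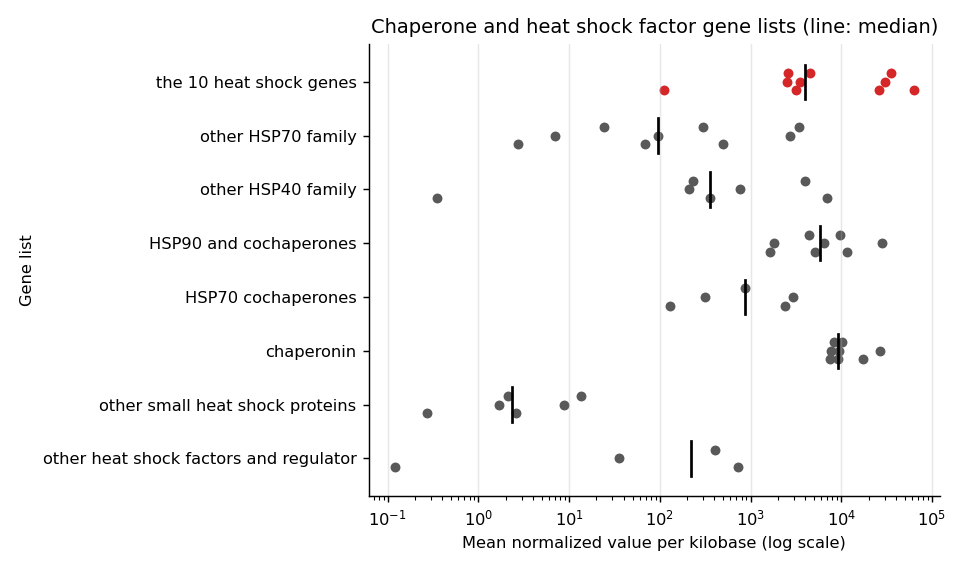
Mean normalized value per kilobase (log axis) of every listed gene in the 10 heat shock genes (red) and in 7 other lists of chaperone, cochaperone and heat shock factor genes (grey), with the median of each list as a black line. The 10 genes reach higher than any other list, the other small heat shock protein genes have the lowest median, and the chaperonin genes form the narrowest group.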

How the data were processed

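For the HEK293T RNA-seq libraries the authors ran the DNAstar SeqManPro aligner against GRCh38.p7, with expression then measured in ArrayStar and QSeq. The submitters' processing notes name DESeq2 1.40.1 and list both GRCh38 and GRCh37. The annotation is not given in the sources used here. The deposited signal of each gene is the authors' mean over all 12 samples of values scaled by DESeq2 size factors. The study's methods name RPKM as the input to this step, and the values were treated here as not divided by length. The 5 other columns of each of the 3 deposited tables hold the authors' comparisons with vehicle (fold change, its standard error, test statistic, p-value and adjusted p-value) and were not used. Columns of single samples were not used (0). The symbols include 23 that a spreadsheet program had rewritten as dates or serial numbers, and these were not used by name.

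Means were divided by the length of the MANE Select transcript in GENCODE 44 (GRCh38), otherwise of the canonical or longest transcript. Symbols were matched directly (17035) or through RefSeq (957), which gave a length to 89.9% of genes with a mean of at least 10. Coordinates of genes come from GENCODE 44 and those of promoters from RefSeq GRCh38.p14. Shared windows were exact matches to any GENCODE 44 transcript of another gene, on either strand. The lookup was checked only on a stretch of *BAG3* against its own windows, which does not test the search of other genes. Coding sequences were aligned globally with Biopython 1.88 under Python 3.11.15. The planned identity between proteins was not computed. Named genes are the 10 members, the highest and lowest gene of each list with its closest relatives, and the gene sharing most windows with a member. *HSPA6*, *HSPA1L*, *HSPB8*, *DNAJC7*, *DGAT1*, *NES*, *LHX1* and ENSG00000285565 were named after their values were seen. The members and lists were chosen with earlier results of these data known. Alternatives (some chosen after seeing the data) were other lengths, rankings, window sizes, tables and motif forms.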

Additional observations from a re-analysis of the deposited data

How the results depend on the processing

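Since no value per sample was used, 245 values recomputed under an alternative were counted as moved when they changed by more than 1.5-fold, which 52 did, 35 of them with another length. Some of the 245 could hardly move, among them pooled means that were deposited more than once and percentiles near 100. *BAG3* at the 88.5th percentile with the coding length, outside the top 10%, counted as not moved. 5 of the 10 genes kept their place in the order per kilobase with the longest transcript, 3 with the union of exons and 5 with the coding length. With the union of exons the ratio of *HSPA8* to the *HSPA1A* and *HSPA1B* pair was 0.477. Among the genes with a promoter window, 2 held a complete heat shock element, 7 a pair of units and 7 an element with 1 mismatch allowed. The shares over all genes with a window were 0.597%, 16.2% and 7.54%. With windows of 100 bases the shared share of *HSPA8* dropped to 0 and that of *HSP90AA1* to 2.33%, while with 36 bases these were 36.4% and 33.4%. The shares held by *HSPA1A* and *HSPA1B* stayed between 72.4% and 76.2%. *DNAJB4* was at the 23.9th percentile of genes with a mean of at least 100 and at the 51.7th with no minimum, which puts it above the median. For the span, the percentiles, the drop below the top 4 genes and 6 of the 10 ratios, the other lengths were chosen after seeing the data. No paired analysis was possible because the values are pooled over all samples and come from no test, and replicates could not be left out for the same reason.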

Other observations

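The 8 chaperonin genes, whose products form the ring that folds actin and tubulin, lay between 7484 per kilobase for *CCT8* and 26934 for *CCT7*, with a median of 9325, above the median of the 10 heat shock genes. *HSP90AB1* and 7 HSP90 cochaperone genes had a median of 5834, and the lowest of them was the cyclophilin *PPID* at 1652. Among the 5 HSP70 cochaperone genes outside the 10, *HSPBP1* was highest at 2940 per kilobase and *BAG2* lowest at 128, with a median of 877. *BAG3* at 2499 per kilobase lay within their range. Undivided by length, *BAG3* at 6400 lay above all 5, of which *HSPBP1* was again highest at 4806.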
